A study of Mus musculus with 15 samples.

Results

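The genes described here are the voltage-gated sodium channels (Scn genes, pore-forming alpha and auxiliary beta subunits), the voltage-gated calcium channels (Cacna1, Cacnb and Cacna2d genes) and the hyperpolarization-activated cyclic nucleotide-gated channels (Hcn genes) of mouse lumbar motor neurons. They were chosen with earlier results of these data known. A rule on gene symbols gave 36 of the 36144 symbols in the gene table: 10 sodium alpha, 4 sodium beta, 10 calcium alpha1, 4 calcium beta, 4 calcium alpha2delta and 4 HCN genes. Of these, 28 reached at least 1 TPM (a level per transcript length and per library total) in at least 3 libraries and were tested.

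The libraries came from motor neurons of spinal segments L1 to L3 that carried cholera toxin subunit B and were cut out by laser capture at postnatal day 6, with 3 biological replicates in each of 5 groups. SMA mice (Smn-/-;SMN2;SMNdelta7) have no functional mouse Smn and carry the human SMN2 and SMNΔ7 transgenes. WT littermates (Smn+/+;SMN2;SMNdelta7) kept both Smn alleles and carried the same 2 transgenes, so the transgenes and the FVB background were shared by every group. WT and SMA mice received vehicle. The other SMA mice were injected into the peritoneum each day from postnatal day 0 with MW150 (a p38α kinase inhibitor, 5 mg/kg), Pifithrin-alpha (a p53 inhibitor, 2.2 mg/kg) or SMN-C3 (a modifier of SMN2 splicing, 3 mg/kg). The labels give equal proportions of male and female mice and do not say whether animals were pooled. Libraries are named below by group and replicate number, such as WT 1.

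Voltage-gated sodium channels open at the axon initial segment and nodes to start and carry the action potential. Calcium channels admit calcium at nerve terminals, dendrites and the soma, where it drives transmitter release, plateau currents and gene regulation. HCN channels pass an inward current when the membrane is hyperpolarized and help set the resting potential and input resistance of motor neurons. In both sodium and calcium channels 1 large alpha subunit forms the pore, and the smaller subunits set its traffic to the membrane and its gating.

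Sequence bears on these levels in 2 ways, through similarity between paralogs and through base composition. A pair of 60-base coding stretches shows a contrast in base composition: the inactivation gate of Scn8a, the cytoplasmic linker that plugs the sodium channel pore, and the selectivity filter of Hcn2. Capitals mark G or C at the third position of a codon.
Scn8a: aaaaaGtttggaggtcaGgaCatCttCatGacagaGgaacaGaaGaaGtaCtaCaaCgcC
Hcn2: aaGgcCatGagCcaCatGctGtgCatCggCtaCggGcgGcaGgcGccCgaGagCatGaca

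In the GRCm38 build the Scn8a stretch is at chr15:101032317-101033531 (plus strand, exons 24 and 25, interrupted by an intron) and the Hcn2 stretch at chr10:79728932-79728991 (plus strand, exon 4), both from the GENCODE M21 transcripts. Of the 20 codons, 14 ended in G or C in Scn8a and 19 in Hcn2, and the G+C content of the stretches was 43.3% and 65.0%. Over its whole transcripts, weighted by level, Hcn2 had the highest G+C content of the 28 tested genes (65.4%). Scn8a was at 50.7% by this measure, and the lowest tested gene at 38.7%. As for similarity, 0 of the 30 runs of 31 bases in the Scn8a stretch occurred in another channel gene. Over whole genes, 0.452% of the 31-base runs of Scn8a did so. Scn1a, Scn2a, Scn3a and Scn9a, which lie together on chromosome 2, had shares of 7.26%, 8.95%, 9.46% and 5.87%. The Scn2a and Scn3a pair shared 822 runs. Reads from such runs cannot be assigned to 1 gene by sequence alone, so the split between these 4 genes is less certain than the level of Scn8a.

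TPM values keep no read depth, so no counting interval is given. Mouse Smn1, which checks the genotype, was at 8.97 to 23.3 TPM in the 3 WT libraries and at 0 to 1.498 TPM in the other 12. Motor neuron markers were present in every library: all 11 listed genes were tested, and their sum was between 2559 and 5655 TPM. The lowest sums were in SMA+Pifithrin-alpha 3 (2559 TPM) and WT 1 (2761 TPM). Chodl (480 to 769 TPM in WT, 119 to 401 TPM in SMA), Mmp9 (14.0 to 20.8 and 2.12 to 10.7 TPM) and Slc5a7 were lower in SMA without overlap. Slc18a3 was higher without overlap, and the other listed motor neuron markers overlapped. Of 7 listed markers of sensory neurons only Calca was tested, and Trpv1, Mrgprd, Prdm12 and Pou4f1 stayed below 1 TPM in every library. All 8 microglial markers were tested, and their summed level was 38.4 to 70.4 TPM in WT and 138 to 152 TPM in SMA. Astrocyte markers (8 of 8 tested) summed to 944 to 1833 TPM in WT and 1603 to 2260 TPM in SMA. Oligodendrocyte lineage markers (8 of 8 tested) summed to 624 to 1830 TPM in WT, 681 to 3687 TPM in SMA and 800 to 5078 TPM with MW150. Red blood cell markers (5 of 5 tested) summed to 676.5 to 2261 TPM in WT and 788 to 3548 TPM in SMA. In such captured tissue, fewer cells of a type and less RNA per cell cannot be told apart.

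WT 1 and SMA+Pifithrin-alpha 3 stood apart. Mitochondrial transcripts made up 21.9% and 20.4% of their TPM, against 3.76% to 12.6% in the other 13 libraries. SMA+Pifithrin-alpha 3 held the lowest value of 16 of the 28 tested channel genes, and WT 1 held the lowest value of 2 and the highest of 8. In WT 1 the channel genes with the most G+C were low relative to the other 2 WT libraries and those with the least were high. Pearson's r between a gene's G+C content and its deviation from the rest of its group was -0.77 in WT 1 and -0.73 in SMA+Pifithrin-alpha 3, over 28 genes that share these libraries. Over 15363 genes with an annotated G+C content it was -0.51 and -0.56. The plot shows the deviations against G+C content for both libraries, and the main results that involve them are also given without them.

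**Figure D1:**
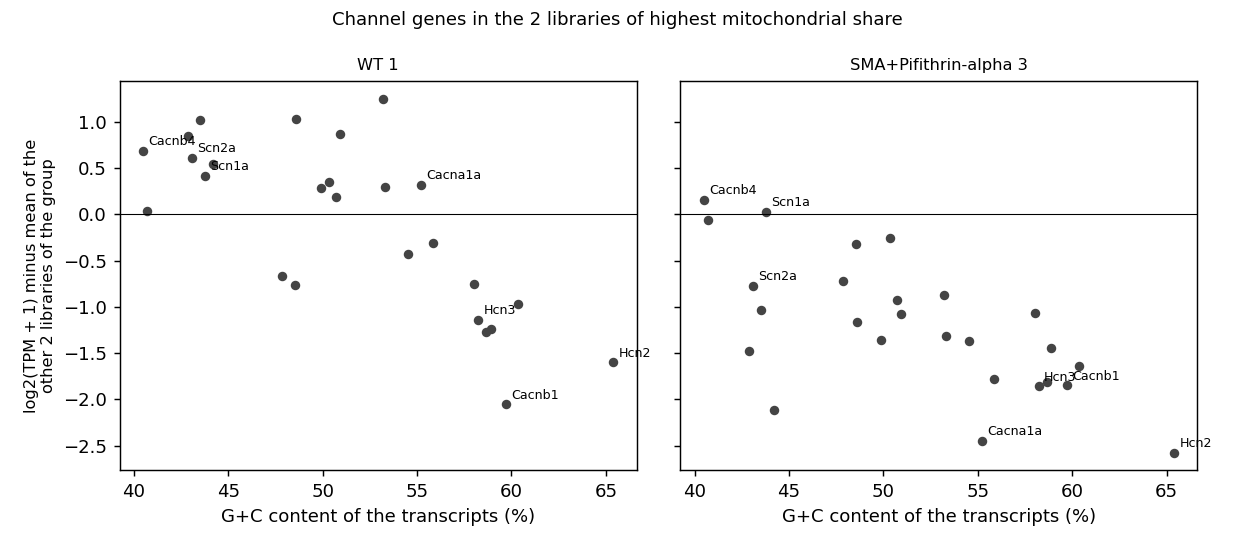
Deviation of 26 tested channel genes in WT 1 (left) and SMA+Pifithrin-alpha 3 (right), as log2(TPM + 1) minus the mean of the other 2 libraries of the group, against the G+C content of its transcripts in percent. Each point is 1 gene. Hcn2, at the G+C-rich end, lies 1.60 below the rest of its group in WT 1 and 2.57 below in SMA+Pifithrin-alpha 3, whereas Scn1a lies 0.42 and 0.03 above. Of the 8 tested genes under 45% G+C, not all of them plotted, 8 lie above in WT 1 and 3 in SMA+Pifithrin-alpha 3. Their medians are 0.65 and -0.41.

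The sodium alpha subunits of these motor neurons were Scn1a, Scn8a, Scn2a, Scn9a and Scn3a, in order of mean TPM over all libraries. Scn1a (NaV1.1; ENSMUSG00000064329.13) was the highest, at 67.1 TPM over all libraries and 41.1% of the family's summed TPM. Scn8a (NaV1.6; ENSMUSG00000023033.14), the main sodium channel of mature initial segments and nodes, followed at 38.4 TPM and 23.4% of the sum. Scn2a (NaV1.2) was at 28.4 TPM, Scn9a (NaV1.7) at 15.9 TPM and Scn3a (NaV1.3, chiefly an embryonic channel) at 14.7 TPM. Of the Scn1a value, 51.3% was assigned to Scn1a-206, a short coding transcript of 1690 bases, and shorter transcripts raise a TPM level for the same number of reads. The other alpha genes were not tested. The muscle channel Scn4a and the sensory neuron channels Scn10a and Scn11a stayed at or below 0.189 TPM in every library, and Scn7a reached 1 TPM in 2 libraries, with 1.73 TPM at most.

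Among the beta subunits, which guide alpha subunits to the membrane and act as adhesion molecules, Scn3b was at 31.9 TPM, Scn2b at 14.2 TPM and Scn4b, the subunit tied to resurgent current, at 13.7 TPM. For calcium alpha1 subunits the order was Cacna1a (P/Q-type, the channel of transmitter release at the mature neuromuscular junction) at 13.9 TPM, the T-type Cacna1g at 11.5 TPM, Cacna1d (L-type) at 7.16 TPM, Cacna1e (R-type) at 6.08 TPM, Cacna1b (N-type) at 3.68 TPM, the T-type Cacna1h at 3.01 TPM and Cacna1c (L-type) at 1.94 TPM. The retinal channel Cacna1f, the T-type Cacna1i and the skeletal muscle channel Cacna1s were below 1 TPM in every library and were not tested. The order of Cacna1a and Cacna1g is not firm, since their ranges over the 15 libraries, 2.81 to 28.3 TPM and 2.71 to 18.2 TPM, overlapped almost entirely.

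The cytoplasmic calcium beta subunits, which carry alpha1 subunits to the membrane, were led by Cacnb1 at 26.2 TPM, with Cacnb3 at 21.2, Cacnb4 at 18.5 and Cacnb2 at 11.9 TPM. Of the extracellular alpha2delta subunits, the targets of gabapentinoids among them, Cacna2d3 was at 31.1 TPM and Cacna2d1 at 26.2 TPM, while Cacna2d2 was at 5.05 and Cacna2d4 at 1.48 TPM. Hcn2 was the highest HCN gene at 25.6 TPM, with Hcn3 at 7.08 TPM and Hcn4 at 6.01 TPM. Of the 28 tested genes, 25 were at 1 TPM or more in all 15 libraries and 19 had a mean of at least 10 TPM.

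**Figure D2:**
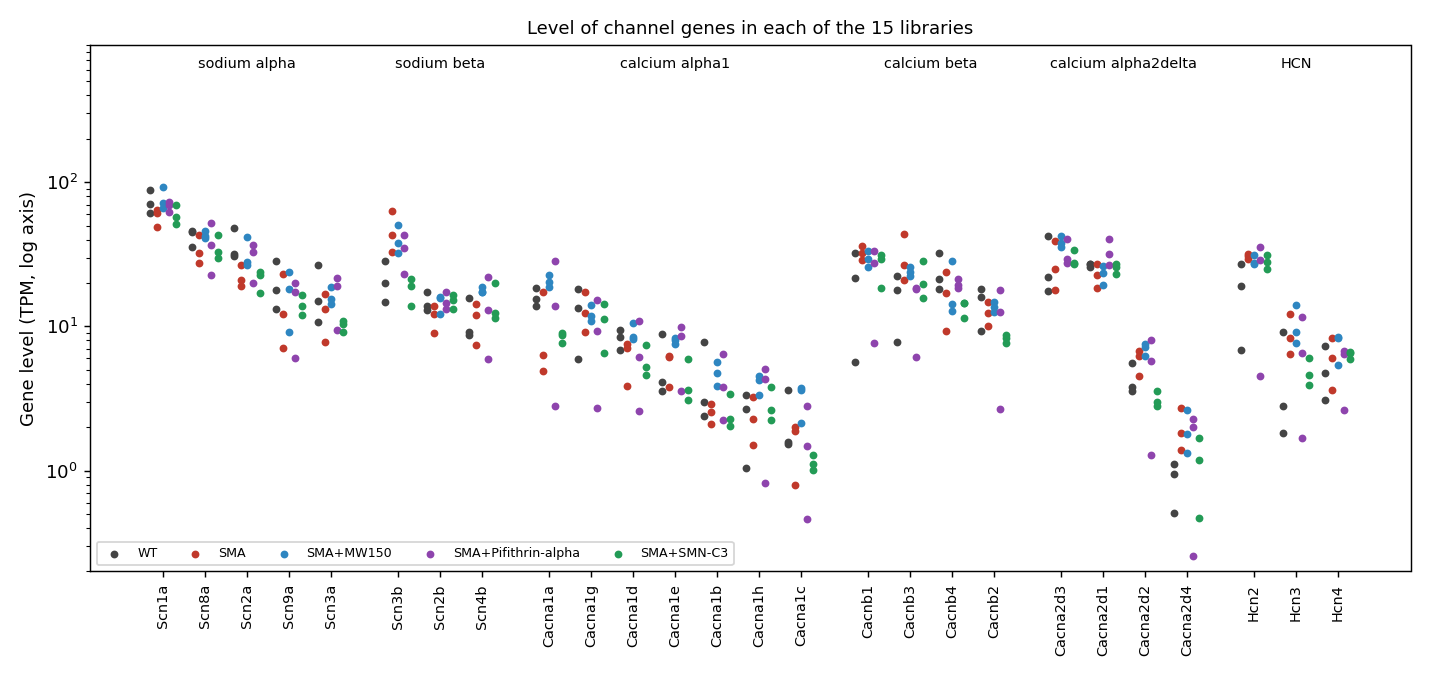
Level of 26 tested channel genes in TPM on a log axis, by family, with 1 point per library and 1 colour per group. Scn1a runs from 48.8 to 92.9 TPM, and the 2 lowest points of Hcn2, at 4.56 and 6.85 TPM, belong to SMA+Pifithrin-alpha 3 and WT 1.

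The transcript table adds a limit on these levels. In 4 of the 28 genes more than 50% of the TPM lay in transcripts not annotated as protein-coding, such as retained introns: Cacna1d (93.3%), Cacna2d4 (84.2%), Cacnb2 (83.7%) and Cacna1a (54.0%). In 10 genes this share was under 5%. The lead transcript of Cacna1d was Cacna1d-206, a noncoding transcript of 1302 bases with 44.2% of the gene's TPM. Some genes also overlap another gene on the opposite strand, such as Cacna1c with Dcp1b, Cacna1d with Dcp1a and Cacna2d4 with Lrtm2, whose mean was 11.6 TPM against 1.48 TPM for Cacna2d4. The strandedness of the reads is not given in the sources used here, so reads from runs common to such pairs may be shared. In either orientation, 0.0607% of the 31-base runs of Cacna1c occurred in a gene outside these families. The shares were 4.45% for Cacna1d and 0.692% for Cacna2d4. How far such runs bear on the low levels of Cacna1c and Cacna2d4 was not tested. Hcn3 shared 16.3% of its 31-base runs with a gene outside these families, more than any other tested channel gene.

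The comparison of SMA with WT asks how channel transcripts differ with loss of Smn in mice that received vehicle. No channel gene was called: 0 of 28 had an adjusted p under 0.05 in limma's moderated test with Benjamini-Hochberg adjustment, where 56 of 15425 genes (0.363%) were called. At an unadjusted p under 0.05 there were 5 channel genes, Scn3b, Scn2a and Cacnb3 among them, or 17.9% against 13.5% of all genes. There were 2 (10.1% of all genes) without WT 1 and SMA+Pifithrin-alpha 3. With 1 library left out there were 1 (without WT 1, 5.99% of all genes) to 8 (without WT 3, 21.5% of all genes). The count was 2 without SMA 1 (9.2%) or SMA 3 (10.1%). For 6 genes the SMA and WT libraries did not overlap, or 21.4% against 18.3% of all genes. Of these, 4 were higher in SMA (Scn3b, Hcn2 and Cacna2d4 among them) and 2 lower (Scn2a among them), where the shares of all genes were 14.5% and 3.81%. The median log2 difference of the 28 genes was -0.08 against 0.24 for all tested genes, on the log2(TPM + 1) scale, which understates differences of low genes. It was 0.048 without SMA 1 and -0.20 without WT 2. Scaling the libraries by median of ratios brought the median of all genes to 0.04 and that of the channel genes to -0.22, and the split of fitted values from 14 higher and 14 lower to 10 higher and 19 lower of 29. The summed microglial markers, given above, were higher in every SMA library than in any WT library, whereas the astrocyte sums overlapped. Of the astrocyte markers, Gfap (18.6 to 54.8 TPM in WT, 81.0 to 138 TPM in SMA) and Aldh1l1 (1.48 to 18.9 and 19.2 to 30.7 TPM) did not overlap. The other listed astrocyte markers did. The part of these other cells in the channel differences was not tested.

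Scn3b (ENSMUSG00000049281.16; chr9:40269217-40291618, plus strand) encodes the beta3 subunit and is known as a gene that p53 can induce. Its level was 14.7, 20.1 and 28.5 TPM in the WT libraries and 63.6, 42.9 and 32.9 TPM in the SMA libraries. Every SMA library was above every WT library, with means of 46.5 ± 15.6 and 21.1 ± 6.97 TPM (SD, n = 3 each). The log2 difference was 1.10 (SE 0.33, limma adjusted p 0.21), the smallest adjusted p among the channel genes and not past the threshold. Without WT 1 and SMA+Pifithrin-alpha 3 it was 0.88. Its transcripts Scn3b-203, at 11.3 TPM in SMA and 3.43 TPM in WT, and Scn3b-201 were both coding, and 87.2% of the gene's TPM over all libraries was in coding transcripts.

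Of the other beta subunits, Scn2b (log2 difference -0.32) and Scn4b (0.0083) overlapped between the groups.

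All 5 tested sodium alpha subunits had fitted values below WT in SMA, and 0 of them were called. Under median-of-ratios scaling 5 of 6 did. Scn2a (ENSMUSG00000075318.12; chr2:65620771-65767447, plus strand) was at 48.4, 31.8 and 30.8 TPM in the WT libraries, against 20.9, 26.7 and 19.0 TPM in SMA. Its groups did not overlap, at a log2 difference of -0.70 (SE 0.30, limma adjusted p 0.35), and of -0.49 without the 2 libraries. The neighbouring differences were -0.32 for Scn1a, -0.31 for Scn8a, -0.41 for Scn3a and -0.55 for Scn9a, all with overlapping groups. They were -0.19, -0.24, -0.072 and -0.26 without WT 1 and SMA+Pifithrin-alpha 3. With 1 library left out Scn1a ran from -0.44 (without WT 3) to -0.19 (without WT 1) and Scn8a from -0.48 (without SMA 2) to -0.16 (without SMA 1). The Scn1a level was at 87.7, 70.2 and 61.1 TPM in WT and 48.8, 63.9 and 60.9 TPM in SMA. Scn8a was at 45.6, 35.8 and 44.8 TPM in WT and 27.3, 43.1 and 32.3 TPM in SMA, so 1 SMA library lay within the WT range. The 95% intervals of the log2 difference, -0.82 to 0.18 for Scn1a and -0.93 to 0.32 for Scn8a, both include 0 and do not show that the groups were alike.

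Among the HCN genes, Hcn2 (ENSMUSG00000020331.9; chr10:79716634-79736108, plus strand) was at 6.85, 19.1 and 27.1 TPM in the WT libraries, against 29.6, 31.9 and 30.6 TPM in SMA. Every SMA library was above every WT library, and WT 1 was far below the other 2. The log2 difference was 0.95 (SE 0.55, limma adjusted p 0.42), and 0.41 without WT 1 and SMA+Pifithrin-alpha 3. Hcn3, at a log2 difference of 1.03, and Hcn4, at 0.21, overlapped between the groups. Without the 2 libraries they were at 0.66 and -0.038. The plot of Scn3b, Scn2a, Hcn2 and Cacnb3 shows these levels by library.

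**Figure D3:**
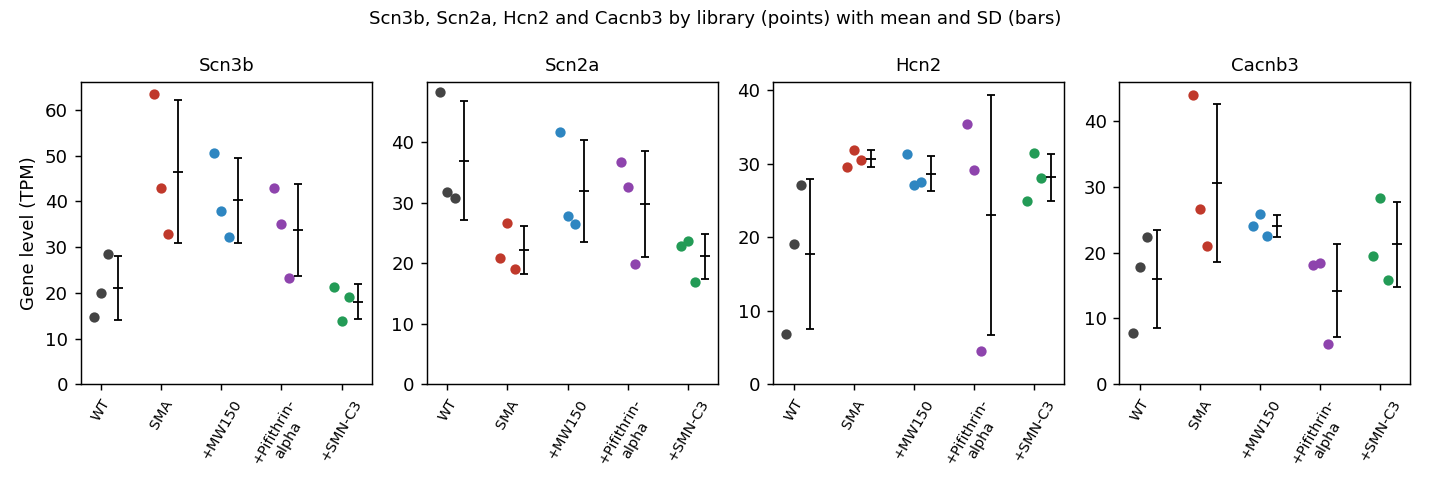
Levels of Scn3b, Scn2a, Hcn2 and Cacnb3 in TPM in the 5 groups, with 1 point per library and the mean and SD of the 3 libraries beside them. For Scn3b the SMA libraries (32.9 to 63.6 TPM) lie above the WT (14.7 to 28.5) and SMA+SMN-C3 libraries (13.9 to 21.3), and for Hcn2 single low points in WT and SMA+Pifithrin-alpha widen the SD.

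Among calcium channel genes, 0 of 15 tested were called between SMA and WT. Of the 7 alpha1 genes 4 were fitted lower in SMA and 3 higher, and under median-of-ratios scaling 7 of 7 were lower. Cacna1a (ENSMUSG00000034656.17; chr8:84388440-84640246, plus strand) was at 18.5, 15.4 and 13.8 TPM in the WT libraries, against 4.91, 17.2 and 6.29 TPM in SMA. SMA 2 lay within the WT range and the other 2 SMA libraries below it, at a log2 difference of -0.86 (SE 0.55, limma adjusted p 0.45). Cacna1b (ENSMUSG00000004113.18) was at 7.76, 2.99 and 2.39 TPM in the WT libraries, against 2.56, 2.92 and 2.11 TPM in SMA, and its log2 difference went from -0.48 to -0.07 without the 2 libraries. Cacnb1 was at 5.63, 21.7 and 32.4 TPM in the WT libraries, against 36.0, 28.7 and 32.2 TPM in SMA, with overlapping groups and a log2 difference of 0.95 that was 0.27 without the 2 libraries. Cacnb3 had a log2 difference of 0.94 (SE 0.43, adjusted p 0.37), which was 0.53 without the 2 libraries. Cacna2d3, the highest alpha2delta gene, was at 17.7, 21.98 and 42.7 TPM in the WT libraries, against 17.97, 25.1 and 39.1 TPM in SMA, a log2 difference of 0.03 whose sign turned under several settings. Cacna2d4 was higher in every SMA library than in any WT library (1.39 to 2.71 against 0.510 to 1.11 TPM), at levels near the filter.

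Across families, the SMA against WT differences ran with base composition. The 10 tested genes with more than 55% G+C (Cacna1a, Cacna1g, Cacnb1 and Hcn2 among them) had a median log2 difference of 0.65. Of these, 9 of 10 were fitted higher in SMA, all but Cacna1a. The 8 with less than 45% (Cacna2d1, Cacnb4, Scn1a and Scn2a among them) had a median of -0.47, and 8 of 8 were fitted lower. Under median-of-ratios scaling the counts were 7 of 10 and 8 of 8. Pearson's r of the difference with G+C content was 0.67 over the 28 genes, which share libraries, and 0.42 over all 15363 genes with a G+C content. Without WT 1 and SMA+Pifithrin-alpha 3 the medians were 0.26 and -0.24 and r was 0.42 over the 28 genes and 0.14 over all genes. These bounds were chosen after the values were seen, and the part of base composition in the single differences was not tested.

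The plot of differences gives 26 of the genes in the 4 comparisons with WT or SMA as reference. The 3 treated groups were each compared with the same 3 SMA libraries, and each comparison asks whether the drug shifted channel transcripts in SMA mice. No channel gene was called in any of them. The summed microglial markers were below the SMA range (138 to 152 TPM) in every treated library, at 99.4 to 128 TPM for MW150, 60.9 to 110.2 TPM for Pifithrin-alpha and 72.0 to 93.6 TPM for SMN-C3, and their part in the channel differences was not tested. Pearson's r between the difference and G+C content over the 28 genes was -0.19 for MW150, -0.11 for SMN-C3 and -0.68 for Pifithrin-alpha, and -0.39 for Pifithrin-alpha without WT 1 and SMA+Pifithrin-alpha 3.

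**Figure D4:**
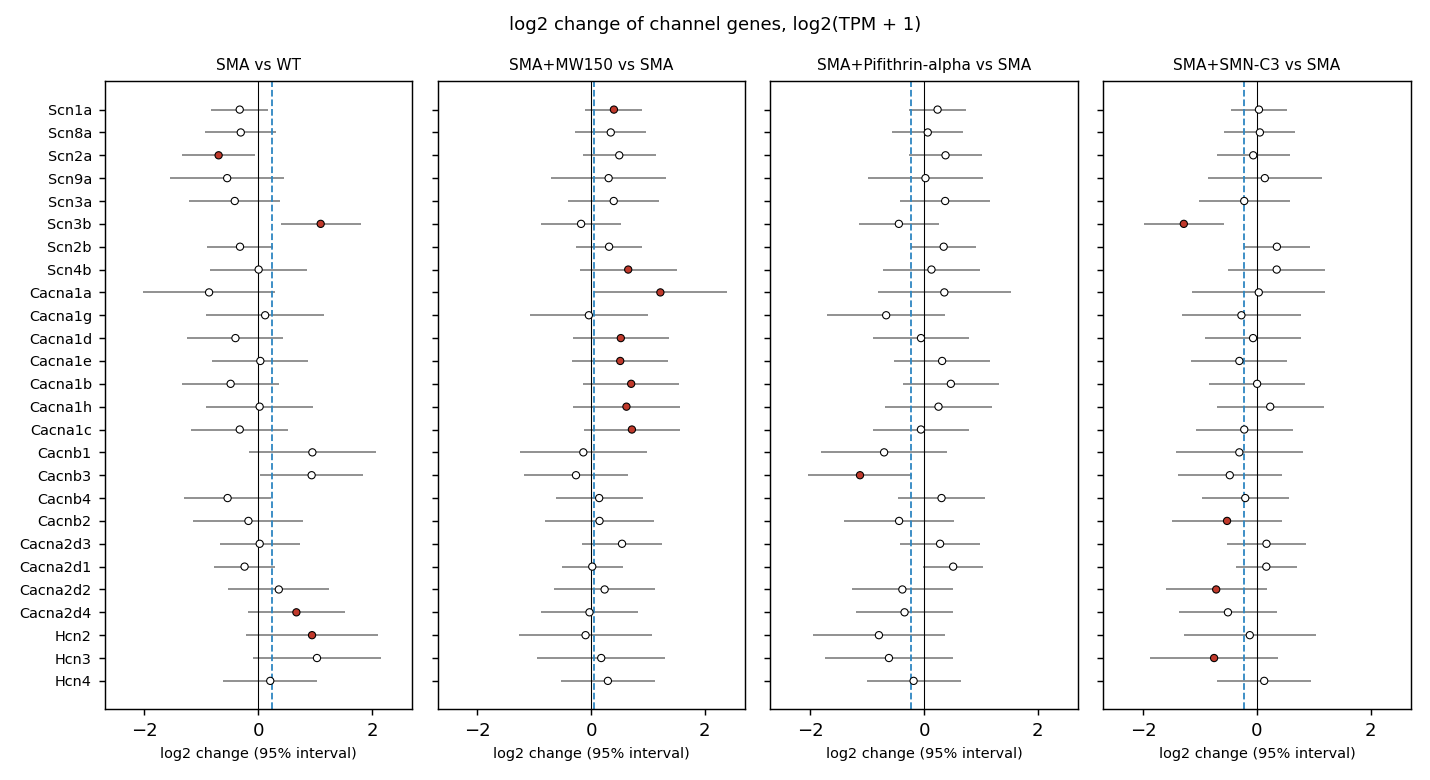
Difference of 26 tested channel genes on the log2(TPM + 1) scale with its 95% interval from limma, for SMA against WT and for the 3 treated groups against SMA. Filled points are genes whose 2 groups of 3 libraries did not overlap (4, 8, 1 and 4 of them from left to right), and the dashed line is the median of all 15425 tested genes.

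With SMN-C3, which raises functional SMN from SMN2, 0 of 28 genes were called against SMA, where 10 of all genes (0.0648%) were. At an unadjusted p under 0.05 there was 1 channel gene, Scn3b, or 3.57% against 8.53% of all genes. There were 2 (17.7% of all genes) without WT 1 and SMA+Pifithrin-alpha 3. The Scn3b level was 21.3, 13.9 and 19.0 TPM with SMN-C3, below all 3 SMA libraries (32.9 to 63.6 TPM) and within or below the WT range (14.7 to 28.5 TPM). Its log2 difference from SMA was -1.29 (SE 0.33, limma adjusted p 0.20), and from WT it was -0.19 (SE 0.33, adjusted p 0.86, 95% interval -0.89 to 0.51). The adjusted p against SMA was 0.029 without WT 1 and SMA+Pifithrin-alpha 3, neither of which is in this pair but both of which enter the shared spread, and 0.027 with each library weighted by its own spread. Of all genes, these fits called 166 of 15235 and 231 of 15425, where the main fit called 10. With 1 of the 6 libraries of the pair left out, the adjusted p of Scn3b stayed at or above 0.20. The transcript Scn3b-202 was at 1.98 TPM with SMN-C3 and 10.8 TPM in SMA, a log2 difference of -2.10 (SE 0.55, limma adjusted p 0.36).

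The other 3 genes whose SMN-C3 and SMA libraries did not overlap were Cacna2d2, Hcn3 and Cacnb2, all lower with SMN-C3. This makes 4 of 28, or 14.3%, all lower, where 20.7% of all genes did not overlap, 18.2% lower and 2.52% higher. Cacna2d2 was at 2.99, 3.56 and 2.81 TPM with SMN-C3 and 6.73, 6.23 and 4.50 TPM in SMA (log2 difference -0.72, SE 0.42, limma adjusted p 0.68). Hcn3 was at 4.58, 3.91 and 6.03 TPM against 12.3, 8.34 and 6.46 TPM (-0.75, SE 0.53, adjusted p 0.74), and Cacnb2 at 8.68, 7.62 and 8.34 TPM against 14.7, 12.5 and 10.02 TPM (-0.53, SE 0.46, adjusted p 0.81). The median log2 difference of the 28 genes was -0.07 against -0.23 for all genes, and 0.076 without SMA 2.

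With MW150, 0 of 28 genes were called against SMA, where 1 of all genes (0.00648%) was. At an unadjusted p under 0.05 there was 1, Cacna1a, or 3.57% against 1.9% of all genes. Without WT 1 and SMA+Pifithrin-alpha 3, which are in neither group, there were 6 (5.37% of all genes). With only the compared groups in the fit there were 4 (5.83%). The count was 0 without SMA 1 (1.34%) or any single MW150 library (1.05% to 1.69%). In 8 genes (28.6%) every MW150 library lay above every SMA library, where 7.53% of all genes did so, and in 0 genes did every MW150 library lie below (3.41% of all genes). Without regard to direction, 10.9% of all genes did not overlap. These 8 were Cacna1a, Cacna1b, Cacna1c, Cacna1d, Cacna1e and Cacna1h, 6 of the 7 tested alpha1 subunits, with Scn1a and Scn4b. In the summed level of protein-coding transcripts alone, the MW150 and SMA libraries overlapped for Cacna1c, Cacna1d, Cacna1h and Scn1a. They did not overlap for Cacna1a, Cacna1b, Cacna1e and Scn4b. The median log2 difference of the 7 alpha1 genes was 0.62 and that of all 28 channel genes 0.30, against 0.06 for all tested genes. Without SMA 3 the median of the channel genes was 0.11. The adjusted p was 1.0 in limma for each of the 8.

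Cacna1a was at 20.2, 18.6 and 22.8 TPM with MW150, all above the SMA libraries, of which SMA 2 (17.2 TPM) was the closest. The log2 difference was 1.22 (SE 0.55). Cacna1b, the N-type channel that supports release at immature terminals, was at 3.89, 5.64 and 4.78 TPM against 2.56, 2.92 and 2.11 TPM in SMA (0.70, SE 0.40). The L-type Cacna1c was at 3.74, 2.12 and 3.64 TPM against 0.790, 1.88 and 1.996 TPM (0.72, SE 0.40), with the nearest libraries of the 2 groups at 2.12 and 1.996 TPM. Scn1a was at 92.9, 71.9 and 66.3 TPM with MW150, against at most 63.9 TPM in SMA (0.40, SE 0.24), and Scn4b was at 17.4, 17.2 and 18.6 TPM against 7.47, 12.0 and 14.4 TPM (0.65, SE 0.40). Scn3b differed by -0.18, with overlapping groups. Against WT, MW150 gave 0 called channel genes, where 22 of all genes (0.143%) were called, and 2 genes at an unadjusted p under 0.05, Scn3b and Hcn3 (7.14% against 10.2% of all genes). In 7 genes every MW150 library was above every WT library, where 19.9% of all genes did not overlap and 17.9% were higher. Scn3b was among them, with a difference of 0.92 (SE 0.33, limma adjusted p 0.44).

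The spread of Cacna1a lay mainly in transcripts not annotated as protein-coding, a split noticed after the values were seen. The summed level of its 3 coding transcripts was 8.64, 7.54 and 6.71 TPM in WT, 3.42, 5.83 and 5.47 TPM in SMA, 7.39, 8.23 and 6.96 TPM with MW150 and 6.29, 7.41 and 5.14 TPM with SMN-C3. With Pifithrin-alpha it was 8.21, 6.64 and 1.70 TPM. The 8 other transcripts summed to 9.82, 7.89 and 7.09 TPM in WT, 1.49, 11.4 and 0.811 TPM in SMA, 12.8, 10.4 and 15.8 TPM with MW150. They were at 20.1, 7.14 and 1.12 TPM after Pifithrin-alpha and at 2.43, 1.54 and 2.55 TPM after SMN-C3. All 3 SMN-C3 libraries were thus near SMA 1 and SMA 3 in these other transcripts. Their coding sums overlapped with those of both WT and SMA. Over all nuclear genes, retained-intron transcripts made up 5.30% to 5.77% of TPM in the MW150 libraries, 3.70% to 5.17% in SMA and 3.38% to 3.57% with SMN-C3, and their part in the Cacna1a differences was not tested.

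**Figure D5:**
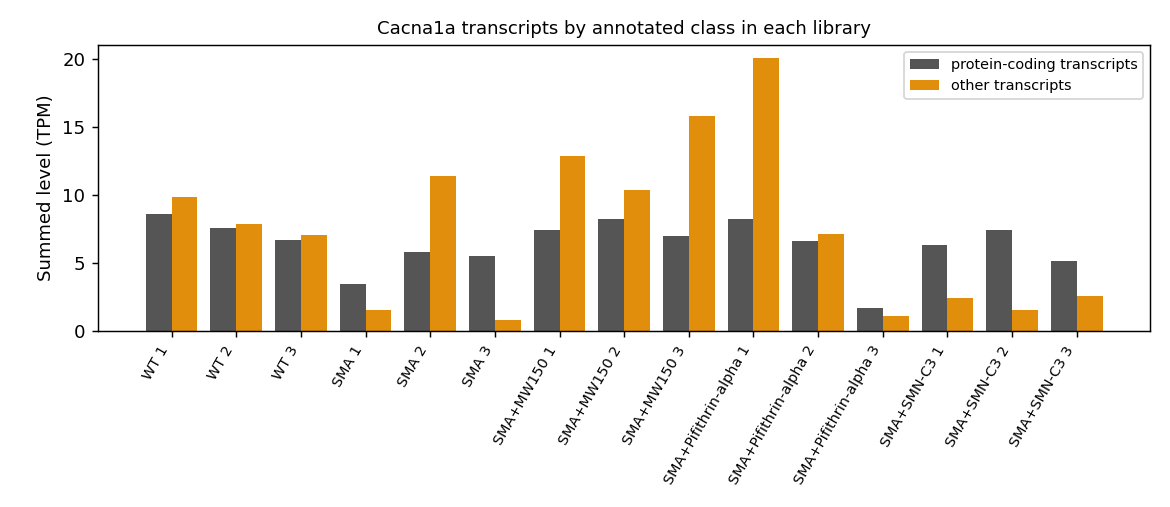
Summed level of the 3 protein-coding (grey) and 8 other (orange) annotated transcripts of Cacna1a in each library, in TPM. The coding sum lies between 3.42 and 8.64 TPM in every library but SMA+Pifithrin-alpha 3 (1.70 TPM), whereas the sum of the others runs from 0.811 TPM in SMA 3 to 20.1 TPM in SMA+Pifithrin-alpha 1.

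With Pifithrin-alpha, 0 of 28 genes were called against SMA, where 1 of all genes (0.00648%) was. At an unadjusted p under 0.05 there was 1, Cacnb3, or 3.57% against 10.7% of all genes. Without WT 1 and SMA+Pifithrin-alpha 3 there were 8 (9.54% of all genes), with array weights 9 (29.4%) and without SMA+Pifithrin-alpha 1 there were 6 (25.3%). In the fit with all libraries Cacnb3 was also the 1 gene whose groups did not overlap (3.57% against 15.3% of all genes, 9.76% lower and 5.53% higher). Cacnb3 (ENSMUSG00000003352.14; chr15:98630840-98644529, plus strand) was at 18.2, 18.5 and 6.09 TPM with Pifithrin-alpha and at 44.0, 26.7 and 21.04 TPM in SMA. The log2 difference was -1.13 (SE 0.43, limma adjusted p 0.46), and -0.64 without WT 1 and SMA+Pifithrin-alpha 3, the library at 6.09 TPM. Scn3b was at 43.0, 35.0 and 23.2 TPM with the p53 inhibitor, overlapping with SMA, at a log2 difference of -0.44 (SE 0.33, limma adjusted p 0.55, 95% interval -1.14 to 0.26). The median log2 difference of the 28 genes was 0.05 against -0.22 for all genes, and 0.34 against 0.0046 without the 2 libraries. Its sign turned with 1 library left out, to -0.29 without SMA+Pifithrin-alpha 1, -0.098 without SMA 1 and -0.024 without SMA+Pifithrin-alpha 2. With each library weighted by its own spread, 3 channel genes were called, among them Cacna2d1 (0.83, adjusted p 0.016) and Scn3a (0.87, adjusted p 0.036), both higher than in SMA, and that fit also called 1574 of the 15425 genes.

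The leading genes of the other families were not called in the treated groups either. Scn8a was at 45.7, 42.7 and 40.9 TPM for MW150, 52.5, 36.6 and 22.7 TPM for Pifithrin-alpha and 33.1, 43.1 and 29.8 TPM for SMN-C3, each range overlapping with SMA (27.3 to 43.1 TPM). Scn1a was at 73.3, 62.2 and 69.0 TPM for Pifithrin-alpha and 57.3, 51.1 and 69.9 TPM for SMN-C3, again with overlap. The Cacna1a gene level was 28.3, 13.8 and 2.81 TPM for Pifithrin-alpha, the widest spread of any group, and 8.72, 8.95 and 7.69 TPM for SMN-C3, the narrowest. Cacna1b was at 6.39, 3.802 and 2.26 TPM for Pifithrin-alpha and 2.28, 3.37 and 2.05 TPM for SMN-C3. Both calcium channel genes thus had their lowest Pifithrin-alpha value in SMA+Pifithrin-alpha 3, as did Scn8a. Cacnb1 was at 33.1, 29.2 and 25.7 TPM for MW150, 33.4, 27.4 and 7.70 TPM for Pifithrin-alpha and 18.4, 29.4 and 31.4 TPM for SMN-C3. Cacna2d3 was at 42.2, 35.7 and 37.8 TPM for MW150, 40.2, 29.5 and 27.4 TPM for Pifithrin-alpha and 27.6, 33.8 and 27.3 TPM for SMN-C3. Hcn2 was at 31.4, 27.1 and 27.5 TPM for MW150, 35.4, 29.1 and 4.56 TPM for Pifithrin-alpha and 24.9, 31.4 and 28.02 TPM for SMN-C3, so the single low value was again in SMA+Pifithrin-alpha 3.

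Pifithrin-alpha and SMN-C3 were also set against WT. With Pifithrin-alpha 0 channel genes were called, where 18 of all genes (0.117%) were, 0 had an unadjusted p under 0.05 in limma (5.78% of all genes) and 0 had groups that did not overlap (6.87% of all genes, 4.79% higher and 2.07% lower). Without WT 1 and SMA+Pifithrin-alpha 3, 2 had an unadjusted p under 0.05 (8.76% of all genes), and with array weights 5 (22.1%). With SMN-C3 0 were called, where 3 of all genes (0.0194%) were, and 2 had an unadjusted p under 0.05 (7.14% against 7.31% of all genes), Scn2a among them (log2 difference -0.76, SE 0.30, limma adjusted p 0.67). The SMN-C3 level of Scn2a was 22.8, 23.7 and 16.9 TPM, below all 3 WT libraries (30.8 to 48.4 TPM). In all, 1 channel gene was higher and 5 were lower with SMN-C3 without overlap, where 12.8% of all genes did not overlap (4.03% higher and 8.82% lower). The F test for any difference among the 5 groups called 0 of 28 channel genes, where 34 of all genes (0.22%) were called, and Scn3b was the 1 channel gene with an unadjusted p under 0.05 (limma adjusted p 0.29), against 9.46% of all genes.

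At the level of transcripts, 96 transcripts of the channel genes were among the 41719 tested, and 0 were called in SMA against WT or in any treated group against SMA. The background was 0.221% in SMA against WT, 0.0024% for MW150, 0.00479% for Pifithrin-alpha and 0.012% for SMN-C3. At an unadjusted p under 0.05 there were 10, 4, 6 and 8 channel transcripts in limma, in the same order, where 12.2%, 4.52%, 8.33% and 6.88% of all transcripts passed.

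A list of 33 genes whose products anchor, modify or bind these channels was followed beside them, of which 28 were tested. The list held initial segment scaffolds, fibroblast growth factor homologous factors, the sodium leak channel complex, release-site proteins and small GTPases that restrain calcium channels, among others. In limma 0 of the 28 were called in any comparison. In SMA against WT, where 0.363% of all genes were called, 6 had an unadjusted p under 0.05 (21.4% against 13.5% of all genes). Unc80, Fgf13, Rims2 and Fam155a, with lower values, and Nedd4l, with higher values, were among these 6. In 8 genes the groups did not overlap (28.6% against 18.3%). Of the 8, 2 were higher in SMA and 6 lower, where 14.5% of all genes were higher and 3.81% lower. Unc80, a large scaffold of the sodium leak channel, was at 87.3, 28.8 and 31.5 TPM in WT and 8.04, 20.9 and 9.01 TPM in SMA, with every SMA library below every WT library. Its log2 difference was -1.81 (SE 0.44, limma adjusted p 0.12), and -1.31 without WT 1 and SMA+Pifithrin-alpha 3. With MW150, at 37.8, 30.6 and 26.2 TPM, it was 1.36 above SMA (SE 0.44, adjusted p 1.0). Fgf13, which binds the tail of sodium alpha subunits, was at 344, 248 and 309.6 TPM in WT and 128, 133 and 184 TPM in SMA (-1.02, SE 0.31, limma adjusted p 0.21). Nedd4l, a ubiquitin ligase that removes sodium channels from the membrane, was at 7.62, 10.6 and 13.5 TPM in WT and 14.3, 27.3 and 21.7 TPM in SMA (0.92, SE 0.41, adjusted p 0.36). With SMN-C3 Nedd4l was at 10.7, 8.79 and 10.2 TPM, below every SMA library (-0.98, SE 0.41, limma adjusted p 0.54). Ank3, the master scaffold of the initial segment, was at 82.5 to 104 TPM in WT and 48.4 to 105 TPM in SMA, with overlapping groups.

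On simulated data built from the spread of these libraries, the same test of SMA against WT recovered 0% of 200 genes changed by log2 1, 76.0% of those changed by log2 2 and 96.5% of those changed by log2 4, among 15425 genes. For transcripts, 41719 in all, the shares were 0%, 34.0% and 84.0%. No channel gene named here had a fitted difference beyond that of Scn3b with SMN-C3 (-1.29), which lies between the first 2 of these sizes, and a count of 0 does not show that channel genes did not differ.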

How the data were processed

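RNA of laser-captured lumbar motor neurons was measured in 15 libraries. The authors deposited TPM values in a gene table and a transcript table whose columns all have the same total. Per the submitters' processing notes they used kallisto 0.44.0, with GRCm38.p6 and mm10 named as builds and DESeq2 as a further tool; the annotation release is not given in the sources used here. GENCODE M21 matched 98.6% of the 118489 transcripts, and coordinates, transcript classes and G+C content come from it. All columns were used. Some genes and sequences are not reported here, though counts and medians include them.

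The 15425 genes and 41719 transcripts that reached 1 TPM in 3 or more libraries were tested on log2(TPM + 1) with limma 3.58.1 (R 4.3.3; 1 mean per group, all 15 libraries, trended moderated two-sided test, Benjamini-Hochberg adjusted p under 0.05 over all tested genes). The p-values measure the spread between these samples. TPM keeps no depth. Per-library values are named for Scn8a, Scn1a, Cacna1a and Cacna1b, the highest gene of each family, every called channel gene and, in SMA against WT and each treated group against SMA, the 5 channel genes with the smallest p and no overlap between groups. Of the genes that work with the channels, the 3 with the smallest p in SMA against WT were to be named. Other genes were named after their values were seen. Members, lists and tests were chosen with earlier results of these data known. The alternatives were a pseudocount of 0.1, other filters, median-of-ratios scaling, TPM without mitochondrial genes, array weights, a replicate block, fewer groups, mitochondrial share as a term and leaving out libraries. The fit was tested on simulated data. Figures were drawn with matplotlib 3.10.9.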

Additional observations from a re-analysis of the deposited data

How the results depend on the processing

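Alternative settings gave 637 values for 40 results. Of 333 log2 differences of single genes 325 kept their sign, of 192 counts of called genes or transcripts 6 changed, and of 112 medians over the channel genes 13 turned sign, most of them by less than the spread between replicates. The channel genes called stayed at 0 in all 7 comparisons except with array weights (3 for Pifithrin-alpha against SMA, 1 for SMN-C3 against SMA and 8 in the F test, with 2 transcripts for Pifithrin-alpha against SMA) and without WT 1 and SMA+Pifithrin-alpha 3, a setting chosen after seeing the data (1 gene, Scn3b, for SMN-C3 against SMA and 1 transcript for SMA against WT). Array weights used the gene-by-gene method. Over all 15425 genes the main fit called 1 for Pifithrin-alpha against SMA and 10 for SMN-C3 against SMA. Array weights called 1574 and 231 in the same order. The fit without the 2 libraries called 166 of 15235 genes for SMN-C3 against SMA. Counts over all features are not given here for the F test and the transcripts under these settings. Scn3b in SMN-C3 against SMA had log2 differences of -1.18 and -1.29 in these 2 fits, and its adjusted p over the settings that keep every library of the pair was 0.027 to 0.29. Cacna2d3 in SMA against WT, 0.03 in the report, reversed to -0.21 with median-of-ratios scaling, -0.079 without mitochondrial genes, -0.042 with array weights, -0.23 with mitochondrial share as a term and -0.23 without the 2 libraries, and ran from -0.26 to 0.38 with 1 library left out. Its cause was not tested. The median log2 difference of the channel genes moved by more than the spread between replicates for MW150 against WT (0.10 with no filter, 0.065 with median-of-ratios scaling and 0.061 with mitochondrial share as a term, from 0.37), SMN-C3 against WT (-0.013 with no filter, from -0.22) and SMN-C3 against SMA (0.10 with median-of-ratios scaling, from -0.07). The filter adds genes near 0, and the cause of the others was not tested. With 1 library left out the medians ran from -0.20 to 0.048 for SMA against WT, -0.29 to 0.34 for Pifithrin-alpha against SMA, -0.23 to 0.30 for Pifithrin-alpha against WT, 0.29 to 0.42 for MW150 against WT, -0.21 to -0.081 for SMN-C3 against WT, 0.11 to 0.44 for MW150 against SMA (lowest without SMA 3) and from -0.14 to 0.076 for SMN-C3 against SMA (highest without SMA 2). Pifithrin-alpha against WT, -0.015 with all libraries, was at 0.21 with array weights and 0.27 without the 2 libraries. With 1 library left out the counts of called genes and transcripts stayed at 0.

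Libraries share replicate numbers across groups, yet over 30 same-numbered pairs the correlation of deviations ran from -0.34 to 0.29, with 4 above 0.1, and 4 of 15 libraries correlated best with their own number. With the replicate number as a block, 0 channel genes and 0 transcripts were called in every comparison, and Scn3b had an adjusted p of 0.28 in SMA against WT and 0.29 in SMN-C3 against SMA. Without depth, counting error cannot be separated from other spread.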
